A study of Mus musculus with 6 samples.

Results

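Prostaglandins are short-lived lipid signals made from arachidonic acid, and the transcripts of 10 genes that make or sense them were followed in mouse corneal endothelium. The 10 genes are the cyclooxygenases Ptgs1 and Ptgs2, the terminal synthases Ptgds, Ptgis, Ptges, Ptges2 and Ptges3, and the receptors Ptger2, Ptger4 and Ptgfr. They were taken from the 57180 gene identifiers of the expression files by name and role, with earlier results of these data known. Ptgds was selected on its abundance in these same libraries and with its group means known, so its level and its difference between groups are described here without a test. The RNA came from the corneal endothelium, a monolayer on the inner face of the cornea that keeps it clear by removing water, of untreated mice. There were 3 libraries of genotype Col8a2Q455K/Q455K/Tcf4+/- and 3 of genotype Col8a2Q455K/Q455K. All 6 libraries thus carry the Q455K change of Col8a2, a chain of collagen VIII in the basement membrane of that layer, on both alleles, which models Fuchs dystrophy in mice. The Tcf4+/- mice are in addition labelled as heterozygous knockouts of Tcf4, a transcription factor of the E protein class. Mice with intact Col8a2 were not analysed here, and the labels do not state the age of the mice, how the Tcf4 allele was made or whether corneas were pooled. The comparison asks what heterozygous loss of Tcf4 changes in the endothelium of this model.

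Arachidonic acid is cut from membrane lipids by phospholipases and is turned by the cyclooxygenases into prostaglandin H, the shared precursor. Each terminal synthase then makes its own product from it: prostaglandin D, prostaglandin E or prostacyclin. The products leave the cell and act through G protein-coupled receptors, of which the E receptors encoded by Ptger2 and Ptger4 raise cyclic AMP and the F receptor encoded by Ptgfr raises calcium. In the eye, prostaglandin signalling is known for its part in inflammation and for eye-pressure drugs that act on the F receptor.

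Promoter sequences are shown for Ptgds, the most abundant of the 10 genes, and for both cyclooxygenases, because E proteins such as Tcf4 are known to recognise the E-box letters CANNTG. Each window runs from 250 bases before to 50 bases after the RefSeq start, in build GRCm38.p6, read 5′ to 3′ on the strand of the gene, with CANNTG in capitals. The windows are chr2:25469700-25469999 on the minus strand for Ptgds, chr2:36230176-36230475 on the plus strand for Ptgs1 and chr1:150099781-150100080 on the plus strand for Ptgs2.
Ptgds: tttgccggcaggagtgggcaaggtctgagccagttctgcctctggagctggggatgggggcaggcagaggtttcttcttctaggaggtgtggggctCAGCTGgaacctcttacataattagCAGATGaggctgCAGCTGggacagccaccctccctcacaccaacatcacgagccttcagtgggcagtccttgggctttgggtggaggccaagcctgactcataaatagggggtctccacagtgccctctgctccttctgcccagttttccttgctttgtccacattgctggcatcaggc
Ptgs1: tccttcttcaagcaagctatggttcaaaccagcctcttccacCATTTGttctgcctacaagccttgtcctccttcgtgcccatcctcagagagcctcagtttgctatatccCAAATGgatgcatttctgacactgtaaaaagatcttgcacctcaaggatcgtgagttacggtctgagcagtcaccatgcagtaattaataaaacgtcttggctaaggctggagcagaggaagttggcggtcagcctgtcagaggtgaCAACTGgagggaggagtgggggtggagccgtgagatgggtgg
Ptgs2: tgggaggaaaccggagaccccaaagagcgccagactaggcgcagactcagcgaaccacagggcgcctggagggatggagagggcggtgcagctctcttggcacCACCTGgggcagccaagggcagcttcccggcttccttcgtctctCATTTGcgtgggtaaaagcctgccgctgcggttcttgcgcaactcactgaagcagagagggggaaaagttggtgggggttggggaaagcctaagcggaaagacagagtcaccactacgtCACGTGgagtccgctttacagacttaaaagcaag
Each of these windows holds 3 matches to CANNTG. In Ptgds the outer matches both read CAGCTG, whereas none of the matches in Ptgs1 does. In Ptgs2 the first match reads CACCTG and the last reads CACGTG. RefSeq gave a window for 9 of the 10 genes, all but Ptgis, and 7 of these 9 held CANNTG, against 72.3% of all 32851 promoter windows of this length. CAGCTG was in the window of Ptgds alone among the 9, against 16.3% of all windows. CACGTG was in 2 of the 9, Ptgs2 and Ptges2, against 7.15% of all windows, and CACCTG, counted on both strands, was in 1, Ptgs2, against 20.2%. Both strands were searched, and every match to the narrower letters is also counted as a match to CANNTG. A match is a run of letters and not a binding site, and the files hold no binding data.

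Levels of Tcf4 did not show the loss that the label names. The gene stood at 440, 599 and 373 CPM (counts scaled to library size with TMM factors) in the libraries labelled Tcf4+/-, against 313, 470 and 430 CPM in the Col8a2 libraries, and the ranges overlapped. Its fitted log2 fold change was 0.22 (SE 0.33, 95% interval -0.52 to 0.96). These counts cover the whole gene, so RNA of a targeted allele that is still transcribed would be counted too. Group names below are therefore labels, and "Col8a2" stands for the group with the Col8a2 mutation alone. Libraries held 30344161 to 54265479 estimated counts, and 19635 to 22499 genes had a count. All 17 endothelial markers, among them Slc4a11, Car3 and Col8a2, were detected in every library, at summed levels of 15345 to 31462 CPM in the libraries labelled Tcf4+/- and 19805 to 33512 CPM in the Col8a2 libraries. Markers of other tissues were present as well. Stromal keratocyte markers summed to 13107, 21566 and 16120 CPM in the libraries labelled Tcf4+/-, against 18086, 12835 and 9423 CPM in the Col8a2 libraries. In replicate 3 labelled Tcf4+/- the keratocyte sum was above the endothelial sum. Corneal epithelium markers summed to 7436, 2678 and 5555 CPM in the libraries labelled Tcf4+/-, against 7368, 3343 and 4375 CPM in the Col8a2 libraries. Lens markers (13 detected) summed to 91.6, 4198 and 11172 CPM in the libraries labelled Tcf4+/-, against 628, 33.9 and 287 CPM in the Col8a2 libraries. Both libraries richest in lens markers also stood apart in processing values. In replicates 2 and 3 labelled Tcf4+/- mitochondrial tRNA genes made up 15.6% and 15.8% of TPM (transcript abundance per transcript length), against 0% in the other 4 libraries, so TPM values of other genes are lower there. Length minus effective length, which follows the length of the fragments or reads, came to 154.8 and 150.1 bases in these libraries, against 210.9 to 240.6 bases in the other 4. Col8a2 replicate 3 had the lowest sum of 8 of the 13 marker lists and the highest endothelial sum. In bulk RNA, fewer cells of a type and less RNA per cell cannot be told apart.

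The 10 genes covered more than 4 orders of magnitude in level, and by mean level the synthases stood above the cyclooxygenases and these above the receptors. To compare genes with each other, TPM was used. Ptgds, which makes prostaglandin D and also carries retinoids and other lipids as a lipocalin, averaged 4170 ± 2400 TPM over the 6 libraries (SD) and was in place 26 among all genes. Ptgis, the prostacyclin synthase, came next with 165 ± 67.9 TPM, and Ptges3, known both as a prostaglandin E synthase and as the Hsp90 co-chaperone p23, with 83.6 ± 8.90 TPM. Ptges, the inducible microsomal prostaglandin E synthase, averaged 25.6 ± 14.8 TPM and Ptges2, its membrane-associated counterpart, 23.9 ± 10.4 TPM. The cyclooxygenases followed, with 7.76 ± 3.95 TPM for Ptgs1, the mostly constitutive form, and 4.86 ± 3.69 TPM for Ptgs2, the inducible form. The receptors were lowest, with means of 0.637 TPM for Ptger4, 0.237 TPM for Ptgfr and 0.148 TPM for Ptger2, and SDs of 0.588, 0.306 and 0.363 TPM.

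Ptgds lay above Ptgis in 6 of 6 libraries with ranges apart, from 1660 to 7873 TPM for Ptgds and from 76.3 to 231 TPM for Ptgis. Ptges3 and Ptges were the other pair of neighbours whose ranges did not overlap, at 74.4 to 99.0 TPM and 9.10 to 43.9 TPM. Every other pair of neighbours in the order overlapped. Ptges2 was above Ptgs1 within each of the 6 libraries all the same, while Ptges was above Ptges2 in 3 of 6. Without the library labelled Tcf4+/- replicate 2, Ptges and Ptges2 changed places, as did Ptgfr and Ptger2, and without Col8a2 replicate 2 only the first of these pairs did.

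**Figure D1:**
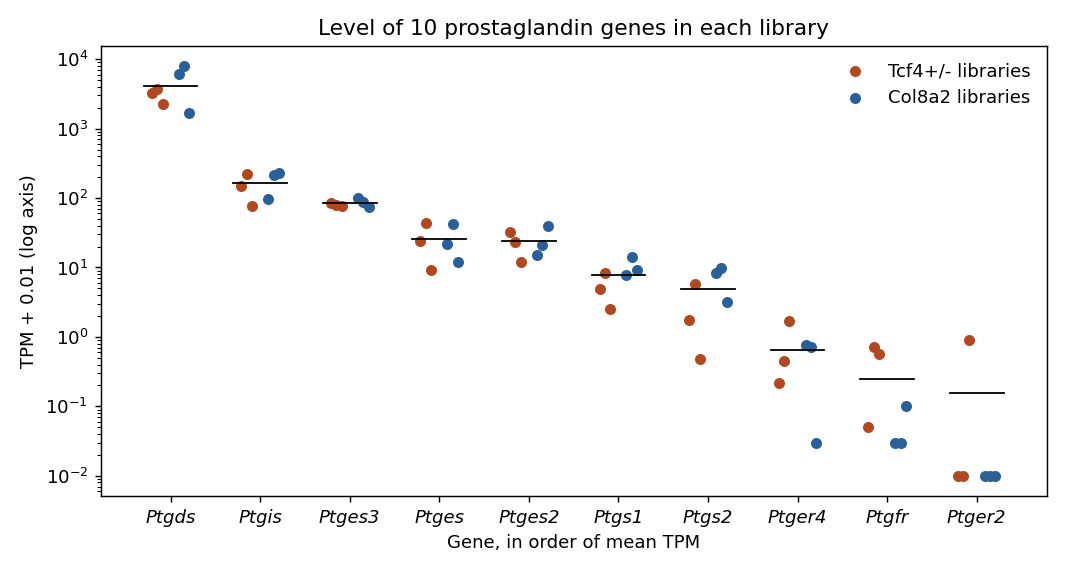
Deposited TPM of the 10 prostaglandin genes in each library, on a log axis after adding 0.01, with libraries labelled Tcf4+/- in orange left of Col8a2 libraries in blue and the mean of the 6 libraries as a line. Ptgds lies between 1660 and 7873 TPM, above every other gene in each library, and the 3 receptors lie at or below 1.69 TPM.

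Transcripts of the cyclooxygenases, which catalyse the committed step, were fitted lower in the libraries labelled Tcf4+/-, but neither gene passed the test. Ptgs2 stood at 6.95, 23.3 and 2.46 CPM in the libraries labelled Tcf4+/-, against 34.6, 32.9 and 12.5 CPM in the Col8a2 libraries. Replicates 1 and 3 labelled Tcf4+/- were below all Col8a2 libraries, and replicate 2 lay between Col8a2 replicates 3 and 2, so the groups overlapped. The means were 10.9 ± 10.9 CPM in the libraries labelled Tcf4+/- and 26.7 ± 12.3 CPM in the Col8a2 libraries (SD, n = 3 each). The fitted log2 fold change was -1.29 (SE 0.74, 95% interval -2.95 to 0.37), and the p from edgeR's quasi-likelihood test, adjusted by Benjamini-Hochberg over all genes, was 0.99988. Leaving out 1 library moved it between -2.50 (without the library labelled Tcf4+/- replicate 2) and -0.83 (without the one labelled Tcf4+/- replicate 3).

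Ptgs1 stood at 11.3, 20.6 and 7.93 CPM in the libraries labelled Tcf4+/-, against 19.9, 28.1 and 21.1 CPM in the Col8a2 libraries. The order of libraries within the Tcf4+/- label was that of Ptgs2, and the overlap came from replicate 2 alone, which lay just above the lowest Col8a2 library. The means were 13.3 ± 6.56 CPM in the libraries labelled Tcf4+/- and 23.0 ± 4.46 CPM in the Col8a2 libraries (SD, n = 3 each). Its log2 fold change was -0.79 (SE 0.45), the 95% interval reached from -1.79 to 0.21, and the edgeR adjusted p was 0.99988. The library labelled Tcf4+/- replicate 3, lowest in both cyclooxygenases, also had the lowest endothelial marker sum, 15345 CPM, and the highest lens marker sum, 11172 CPM. Its share of mitochondrial tRNA was 15.8% of TPM, and the part of these values in the cyclooxygenase levels was not tested. Without both lens-rich libraries, replicates 2 and 3 labelled Tcf4+/-, 1 library of that label is left against 3, and it stood at 6.95 CPM for Ptgs2 and 11.3 CPM for Ptgs1, below all Col8a2 libraries.

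Summed as TPM, the cyclooxygenases reached 6.54, 13.9 and 3.00 in the libraries labelled Tcf4+/-, against 16.1, 23.9 and 12.3 in the Col8a2 libraries. In the libraries labelled Tcf4+/- replicates 2 and 3 these sums are lowered by the mitochondrial tRNA share, which leaves ratios within a library as they are. The ratio of Ptgs1 to Ptgs2, both in TPM, was 2.78, 1.44 and 5.38 in the libraries labelled Tcf4+/-, against 0.960, 1.44 and 2.81 in the Col8a2 libraries. Ptgs1 was thus above Ptgs2 in every library but Col8a2 replicate 1. Ptgs2 had the same weighted transcript length, 4453 bases, in all 6 libraries.

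Ptgds was the leading transcript of prostaglandin synthesis in every library, and its level varied most within the Col8a2 group. It stood at 1683, 2277 and 1675 CPM in the libraries labelled Tcf4+/-, against 3286, 3444 and 828 CPM in the Col8a2 libraries. Col8a2 replicates 1 and 2 were the highest of all and Col8a2 replicate 3 was the lowest of all, with the libraries labelled Tcf4+/- between them. The means were 1878 ± 345 CPM in the libraries labelled Tcf4+/- and 2519 ± 1466 CPM in the Col8a2 libraries (SD, n = 3 each), and the fitted log2 fold change was -0.42 with a standard error of 0.52. Leaving out Col8a2 replicate 3 gave -0.84 and leaving out Col8a2 replicate 2 gave -0.13.

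Within single libraries, Ptgds took 0.166%, 0.231% and 0.164% of all counts in the libraries labelled Tcf4+/-, against 0.319%, 0.366% and 0.0817% in the Col8a2 libraries. By TPM it was in place 31, 25 and 52 among all genes in the libraries labelled Tcf4+/-, against 14, 13 and 55 in the Col8a2 libraries. All genes here include those for mitochondrial tRNA, at 15.6% and 15.8% of TPM in replicates 2 and 3 labelled Tcf4+/-, against 0% in the other 4 libraries. How far such genes moved these places was not tested. It made up 91.9%, 90.9% and 92.9% of the summed TPM of the 5 synthases in the libraries labelled Tcf4+/-, against 96.4%, 95.6% and 82.3% in the Col8a2 libraries. The lipocalin synthase thus outweighed the other 4 synthases together in each library, least so in Col8a2 replicate 3. Relative to the summed cyclooxygenases, Ptgds TPM was 502-fold, 268-fold and 754-fold in the libraries labelled Tcf4+/-, against 385-fold, 330-fold and 135-fold in the Col8a2 libraries.

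Ptgds is also known from other tissues of the front of the eye, so the marker levels of more such tissues are given beside it. Iris, ciliary body and pigment cell markers (9 of 9 detected, among them Dct, Pmel and Tyrp1, none at 0) summed to 630, 1575 and 783 CPM in the libraries labelled Tcf4+/-, against 1125, 1226 and 393 CPM in the Col8a2 libraries. Trabecular meshwork markers (6 of 6 detected, Rspo4 at 0 in 5 libraries) summed to 799, 2267 and 1627 CPM in the libraries labelled Tcf4+/-, against 1915, 1420 and 615 CPM in the Col8a2 libraries. Col8a2 replicate 3, lowest in Ptgds, was lowest in both sums and had the highest endothelial sum, 33512 CPM. The highest pigment and trabecular sums were in the library labelled Tcf4+/- replicate 2, however, where Ptgds was below Col8a2 replicates 1 and 2. Retinal pigment epithelium markers (7 of 7 detected, none at 0) summed to 2058, 1132 and 1910 CPM in the libraries labelled Tcf4+/-, against 2226, 1363 and 944 CPM in the Col8a2 libraries. The part of these tissues in the Ptgds level was not tested.

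**Figure D2:**
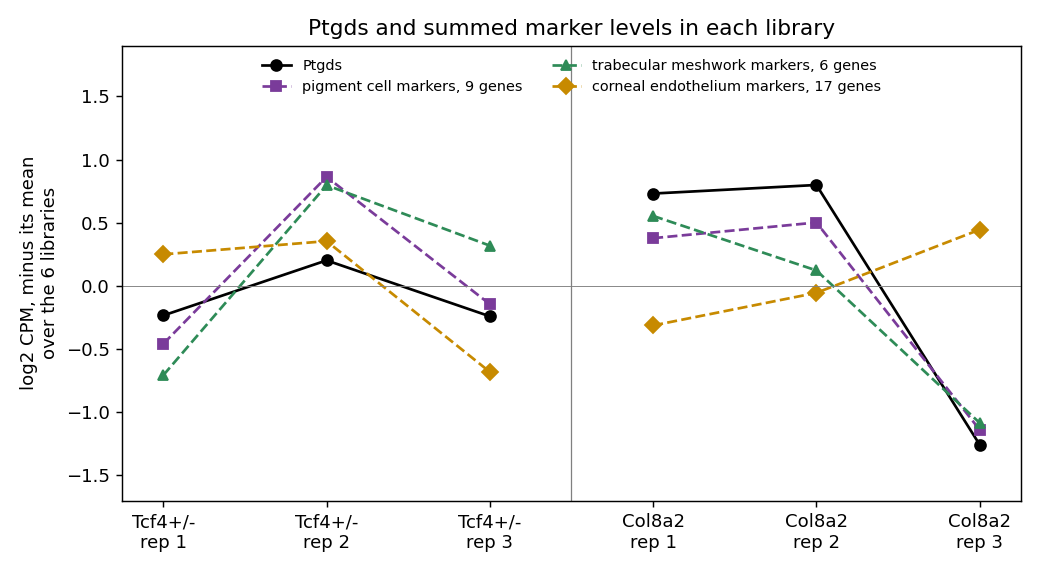
log2 CPM of Ptgds and of 3 summed marker lists in each library, each minus its mean over the 6 libraries, with libraries labelled Tcf4+/- on the left and Col8a2 libraries on the right. In Col8a2 replicate 3 Ptgds (828 CPM), the pigment cell markers (393 CPM) and the trabecular markers (615 CPM) are lowest while the endothelial markers (33512 CPM) are highest.

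The genes whose profile over the 6 libraries was closest to that of Ptgds were found by the root mean square difference of log2 CPM after centring each gene, among 9835 protein-coding genes of at least 10 CPM. The closest was Fmnl2, a formin that builds actin filaments, with a difference of 0.0967 on the log2 scale. Fmnl2 stood at 14.5, 20.4 and 14.9 CPM in the libraries labelled Tcf4+/-, against 29.8, 25.7 and 6.80 CPM in the Col8a2 libraries. Next came Tspan10, a tetraspanin, at 0.123, Olfm1, a secreted olfactomedin, at 0.135, Cltrn, which encodes collectrin, at 0.147 and Stard5, a sterol-binding protein, at 0.170. These values describe 6 points that share libraries, tissue makeup and depth. The other prostaglandin genes were lower on the same list, at rank 986 for Ptges, 2115 for Ptges3, 3957 for Ptgs1, 7430 for Ptgis, 8112 for Ptges2 and 8756 for Ptgs2, and the receptors were below its minimum level. A gene that hardly varies is placed by the spread of Ptgds alone, so such a rank is not by itself a likeness of profile. Ptges3 comes near that case, with an SD of log2 CPM of 0.229 against 0.762 for Ptgds.

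Ptgis, the prostacyclin synthase, showed no detectable difference. It stood at 257, 406 and 180 CPM in the libraries labelled Tcf4+/-, against 180, 314 and 392 CPM in the Col8a2 libraries, each group spanning nearly the range of the other. Its means were 281 ± 115 CPM in the libraries labelled Tcf4+/- and 295 ± 107 CPM in the Col8a2 libraries (SD, n = 3 each). The log2 fold change of Ptgis was -0.07 (SE 0.40, 95% interval -0.98 to 0.83), and its edgeR adjusted p was 0.99988. The sign turned to 0.16 without the library labelled Tcf4+/- replicate 3 and to 0.19 without Col8a2 replicate 3. The ratio of Ptgds to Ptgis in TPM, set by both synthases, was 22.2, 16.7 and 29.6 in the libraries labelled Tcf4+/-, against 64.0, 36.8 and 7.19 in the Col8a2 libraries. The widest span of that ratio was thus within the Col8a2 group. Ptgis overlaps 1110018N20Rik on the opposite strand, which averaged 3.45 TPM, and the labels do not state that strand was kept.

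The 3 prostaglandin E synthases did not differ beyond their spread either. Ptges stood at 56.5, 90.2 and 31.7 CPM in the libraries labelled Tcf4+/-, against 45.8, 64.2 and 31.7 CPM in the Col8a2 libraries, so that replicate 2 of each label was the highest and replicate 3 the lowest of its group. Its log2 fold change was 0.33 (SE 0.42, 95% interval -0.60 to 1.26), and it was -0.09 without the library labelled Tcf4+/- replicate 2. Ptges2 stood at 51.2, 37.0 and 28.5 CPM in the libraries labelled Tcf4+/-, against 30.4, 31.0 and 59.0 CPM in the Col8a2 libraries. Its highest library was Col8a2 replicate 3, the one lowest in Ptgds, and its log2 fold change was -0.04 (SE 0.37, 95% interval -0.88 to 0.79). That of Ptges2 turned to 0.13 without the library labelled Tcf4+/- replicate 3 and to 0.34 without Col8a2 replicate 3. The ratio of Ptges to Ptges2 in TPM was 0.737, 1.91 and 0.761 in the libraries labelled Tcf4+/-, against 1.46, 1.99 and 0.310 in the Col8a2 libraries.

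Ptges3, whose protein also serves Hsp90 in many cell types, varied least of the 9 genes that passed the filter on low counts. It stood at 138, 131 and 156 CPM in the libraries labelled Tcf4+/-, against 167, 112 and 116 CPM in the Col8a2 libraries, and its log2 fold change was 0.11 (SE 0.28, 95% interval -0.52 to 0.73). The highest and the lowest library were Col8a2 replicates 1 and 2. A processed pseudogene copy, Ptges3-ps, was listed at 1.10 to 3.26 TPM. Reads shared between near-identical copies make the Ptges3 value uncertain, by an amount that was not measured. On the log2(TPM + 1) scale, on which all genes tested had a median of -0.15, the fold changes of Ptges and Ptges3 were -0.06 and -0.10. Each of the 3 prostaglandin E synthases had an edgeR adjusted p of 0.99988.

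**Figure D3:**
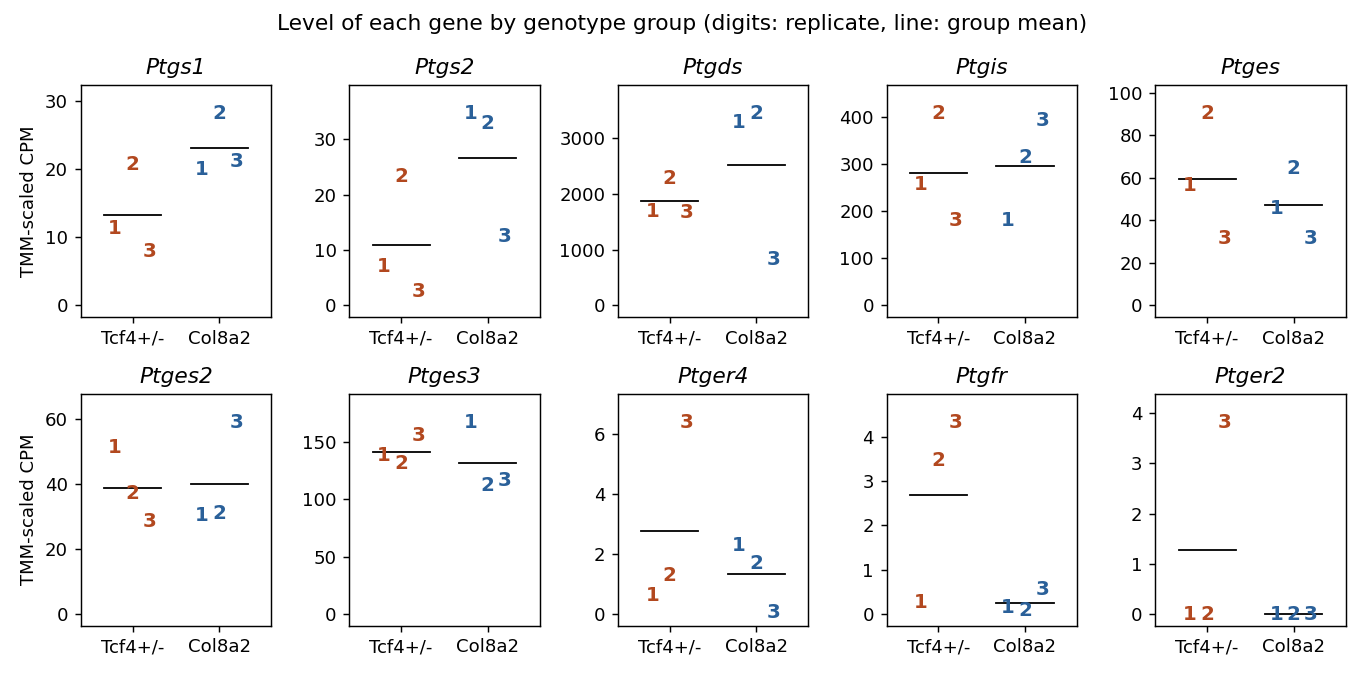
TMM-scaled CPM of each of the 10 genes, with libraries labelled Tcf4+/- in orange left of Col8a2 libraries in blue, each digit the replicate number and each line the group mean. For Ptgs2 the libraries labelled Tcf4+/- sit at 2.46 to 23.3 CPM and the Col8a2 libraries at 12.5 to 34.6 CPM. The groups overlap for every gene, and Ptger2 is at 0 CPM in all libraries but 1 labelled Tcf4+/-.

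The receptors were at low levels, with 0 to 191 estimated counts per library, and most of their signal came from a few libraries. Ptgfr, the F receptor, stood at 0.254, 3.47 and 4.32 CPM in the libraries labelled Tcf4+/-, against 0.149, 0.0808 and 0.553 CPM in the Col8a2 libraries. Replicates 2 and 3 labelled Tcf4+/- were above all others, with 191 and 128 estimated counts, while the remaining 4 libraries held 4 to 28. The log2 fold change was 3.35 (SE 1.57), the 95% interval reached from -0.17 to 6.86, and the edgeR adjusted p was 0.99988. The unadjusted p of 0.0151 from DESeq2 became 0.939 after adjustment. Replicates 2 and 3 labelled Tcf4+/- are also the lens-rich libraries, with lens marker sums of 4198 and 11172 CPM against 33.9 to 628 CPM in the other 4. They are as well those with mitochondrial tRNA at 15.6% and 15.8% of TPM and the shorter fragment or read lengths. The part of lens tissue, or of these library differences, in the Ptgfr signal was not tested. The weighted length of Ptgfr transcripts was 5410 bases in the library labelled Tcf4+/- replicate 2 and 6624 bases in the other 5.

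Ptger4, a receptor for prostaglandin E, stood at 0.614, 1.29 and 6.38 CPM in the libraries labelled Tcf4+/-, against 2.29, 1.70 and 0.0395 CPM in the Col8a2 libraries. The highest library was replicate 3 labelled Tcf4+/- and the lowest was Col8a2 replicate 3, at about 2 estimated counts, with the other 4 libraries mixed between them. Its log2 fold change was 1.04 (SE 1.49), the 95% interval reached from -2.30 to 4.38, and the edgeR adjusted p was 0.99988. The sign turned to -0.50 without the library labelled Tcf4+/- replicate 3. Ptger4 overlaps Ttc33 on the opposite strand, which averaged 24.8 TPM, so without strand some of its few reads cannot be told apart from those of that gene. Ptger2, another prostaglandin E receptor, had 113 estimated counts in the library labelled Tcf4+/- replicate 3 and 0 in the other 5, and did not pass the filter on low counts. A count of 0 allows up to 3 counts, or 0.0553 to 0.0643 CPM in those 5 libraries, and such limits cover counting error only.

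Of the 9 genes other than Ptgds, 8 passed the filter on low counts, with fitted values above 0 for 4 of them and under 0 for the other 4. Their median log2 fold change was 0.03, against 0.00 over all 17639 genes tested. None of the 8 passed an edgeR adjusted p of 0.05, where 0% of all genes did, and 0 had an unadjusted p under 0.05, against 2.42% of all genes. The groups overlapped for each of the 8. Of all genes tested, 4.53% had every library labelled Tcf4+/- above every Col8a2 library and 3.57% had every one below. DESeq2 called 0 of the 8 and 0.189% of all genes. With 0 edgeR calls in the whole table and few by DESeq2, these counts say nothing particular about the prostaglandin genes. The intervals of Ptgs1, Ptgs2, Ptges, Ptger4 and Ptgfr include changes of more than 2-fold in the direction fitted. Those of Ptges2, Ptges3 and Ptgis end short of 2-fold either way, that of Ptgis only just, at -0.98. The intervals are not adjusted for the number of genes, and the labels do not say whether libraries come from separate animals. A 2-fold change in Ptges2, Ptges3 or Ptgis is therefore not excluded.

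The members also differed in how much they varied between libraries regardless of label. The SD of log2 CPM over the 6 libraries was 0.229 for Ptges3, lower than in all but 8.39% of protein-coding genes of at least 10 CPM. It was 0.436 for Ptges2, 0.523 for Ptgis, 0.594 for Ptges, 0.677 for Ptgs1 and 0.762 for Ptgds, against a median of 0.455 for those coding genes. Ptgs2 varied most among the enzymes, with an SD of 1.48, above that of 98.7% of these coding genes and with 14.0-fold between its highest and lowest library. The highest and lowest libraries were 4.16-fold apart for Ptgds, 3.55-fold for Ptgs1 and 1.49-fold for Ptges3. Ptger4 and Ptgfr, with SDs of 2.13 and 2.17, are at counts too low for such a comparison.

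The rest of the pathway was followed through 81 further genes, listed by role, of which 66 passed the filter. None of the 66 passed the edgeR test in either direction, 35 were fitted higher and 31 lower in the libraries labelled Tcf4+/-, and the median log2 fold change was 0.05. An unadjusted p under 0.05 was found for 2 of 66, Akr1b8 and Abcc4, against 2.42% of all genes tested. The groups did not overlap for 6 of 66, of which 2 were higher and 4 lower in the libraries labelled Tcf4+/-, against 4.53% and 3.57% of all genes.

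Among genes that release arachidonic acid or hold it back, 5 of 14 tested were fitted higher and 9 lower, with a median log2 fold change of -0.06. Mgll, the lipase that frees arachidonic acid from an endocannabinoid, averaged 263 ± 32.2 CPM in the libraries labelled Tcf4+/- and 361 ± 165 CPM in the Col8a2 libraries (SD, n = 3 each), a log2 fold change of -0.46. Anxa1, an annexin known to hold back phospholipase A2, averaged 391 ± 66.2 CPM in the libraries labelled Tcf4+/- and 471 ± 101 CPM in the Col8a2 libraries (SD, n = 3 each), a log2 fold change of -0.27. Both differences were within the spread of the libraries.

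Of 8 genes listed as other prostanoid synthases, all tested, 5 were fitted higher and 3 lower. Whether Akr1b8, which is on this list, makes a prostanoid was not tested. Akr1b8, an aldo-keto reductase, stood at 0.593, 1.16 and 0.0675 CPM in the libraries labelled Tcf4+/-, against 10.7, 5.35 and 2.63 CPM in the Col8a2 libraries. Every library labelled Tcf4+/- lay below every Col8a2 library. The log2 fold change of Akr1b8 was -3.34 (SE 1.19, 95% interval -5.99 to -0.68), the edgeR p was 0.019 before and 0.99988 after adjustment, and DESeq2 gave an adjusted p of 0.27. Akr1b3, the aldose reductase that also makes prostaglandin F, averaged 170 ± 61.1 CPM in the libraries labelled Tcf4+/- and 174 ± 62.4 CPM in the Col8a2 libraries (SD, n = 3 each). Prxl2b, a prostaglandin F synthase, stood at 47.3, 30.8 and 71.9 CPM in the libraries labelled Tcf4+/-, against 56.7, 40.4 and 37.3 CPM in the Col8a2 libraries. Neither of these F synthases differed beyond its spread.

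Prostaglandins cross membranes through carriers and are broken down inside cells, and 3 of 9 such genes were fitted higher and 6 lower, with a median log2 fold change of -0.22. Abcc4, an exporter of prostaglandins, stood at 7.90, 12.5 and 4.49 CPM in the libraries labelled Tcf4+/-, against 17.9, 25.2 and 15 CPM in the Col8a2 libraries. The groups did not overlap, with the highest library labelled Tcf4+/- below the lowest Col8a2 library. For Abcc4 the log2 fold change was -1.22 (SE 0.50, 95% interval -2.34 to -0.10), and the edgeR p was 0.0362 before and 0.99988 after adjustment. Ptgr1, a reductase that inactivates prostaglandins, averaged 87.0 ± 44.1 CPM in the libraries labelled Tcf4+/- and 116 ± 54.1 CPM in the Col8a2 libraries (SD, n = 3 each). Slco3a1, a carrier, averaged 87.3 ± 31.8 CPM in the libraries labelled Tcf4+/- and 94.1 ± 12 CPM in the Col8a2 libraries (SD, n = 3 each). These last differences did not pass the edgeR test.

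Of 7 other receptor genes, 5 were tested, with 3 fitted higher and 2 lower. Ptger3, a further prostaglandin E receptor, stood at 11.8, 17.9 and 0 CPM in the libraries labelled Tcf4+/-, against 0.0212, 16.1 and 10.8 CPM in the Col8a2 libraries. It was thus near or at 0 in 1 library of each group and above 10 CPM in the other 4, so that the label did not separate its levels. Ptgfrn, which binds and restrains the F receptor, averaged 30.3 ± 17.2 CPM in the libraries labelled Tcf4+/- and 35.2 ± 2.84 CPM in the Col8a2 libraries (SD, n = 3 each). The 18 signalling genes tested downstream of the receptors were fitted higher for 9 and lower for 9, with Gnas, the G protein subunit that raises cyclic AMP, at 931 ± 34.7 CPM in the libraries labelled Tcf4+/- and 905 ± 104 CPM in the Col8a2 libraries (SD, n = 3 each). Gna11, a subunit that raises calcium, averaged 217 ± 82.1 CPM in the libraries labelled Tcf4+/- and 213 ± 38.0 CPM in the Col8a2 libraries (SD, n = 3 each).

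On the neighbouring lipoxygenase branch, which competes for arachidonic acid, 6 of 12 genes were tested. All 6 were fitted higher, with a median log2 fold change of 0.83, but none passed the test. The groups overlapped for each of them, and of all 17639 genes tested 8839 were fitted higher. Some of the 6 stood under 10 CPM in every library, with standard errors of up to 1.67. Alox12, a lipoxygenase, averaged 20.7 ± 13.0 CPM in the libraries labelled Tcf4+/- and 14.3 ± 12.5 CPM in the Col8a2 libraries (SD, n = 3 each). Lta4h, which makes leukotriene B, averaged 50.4 ± 10.8 CPM in the libraries labelled Tcf4+/- and 41.7 ± 5.24 CPM in the Col8a2 libraries (SD, n = 3 each). Without the library labelled Tcf4+/- replicate 3 the log2 fold change of Alox12 was -0.11, against 0.54 with all libraries. Of 6 lipocalins and retinoid carriers related to Ptgds, 4 were fitted higher and 2 lower. Apod, another lipocalin, averaged 1507 ± 809 CPM in the libraries labelled Tcf4+/- and 1617 ± 690 CPM in the Col8a2 libraries, and Ttr, a carrier of thyroid hormone and of retinol with its binding protein, 678 ± 305 CPM in the libraries labelled Tcf4+/- and 518 ± 289 CPM in the Col8a2 libraries (SD, n = 3 each).

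**Figure D4:**
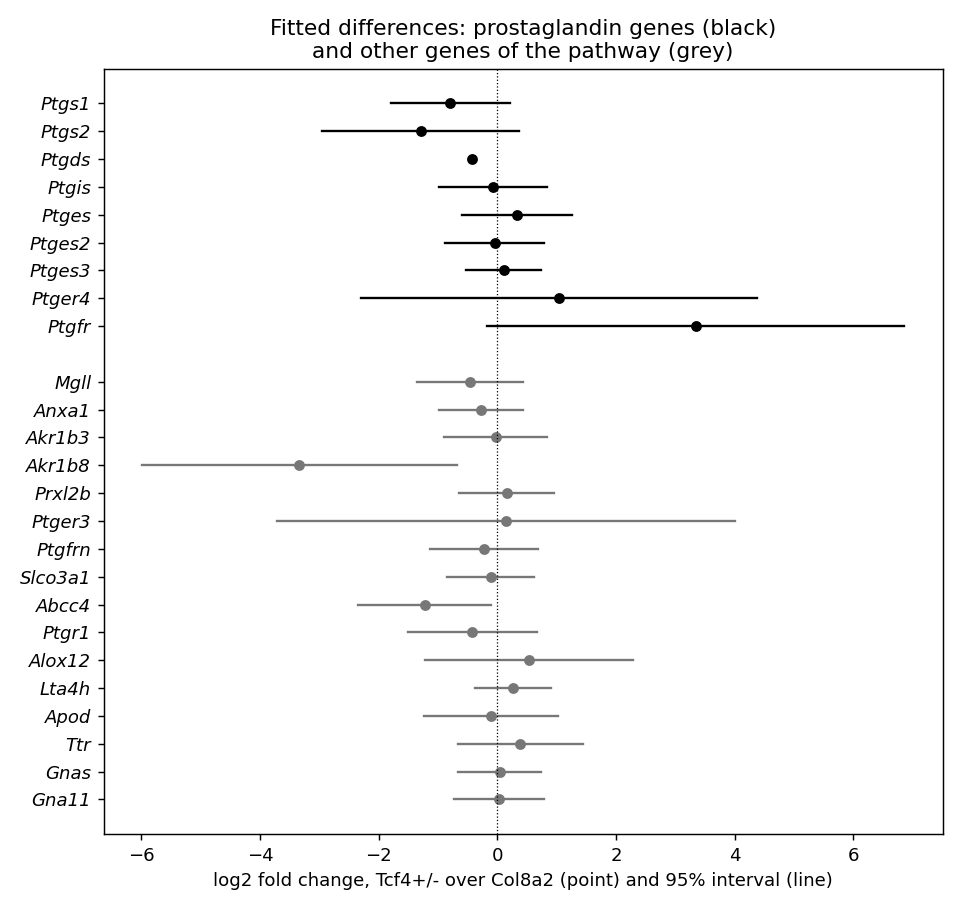
Fitted log2 fold change, libraries labelled Tcf4+/- over Col8a2 libraries, for the prostaglandin genes that passed the filter (black) and the named genes of the rest of the pathway (grey), with 95% intervals as lines except for Ptgds, which is shown as a value only. The intervals of the 8 other prostaglandin genes cross 0, with Ptgs2 at -1.29 and Ptgfr at 3.35 as the ends, while those of Akr1b8 (-3.34) and Abcc4 (-1.22) lie below 0 before any adjustment.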

How the data were processed

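Per the labels' protocols, the RNeasy Micro Kit, SMART-Seq HT and Nextera XT were used. FastQC 0.12.1, fastp 0.23.2, STAR, RSEM, DESeq2 and build GRCm39 are named in the submitters' processing notes. The deposited files give, per the file headers, an expected count, which is an estimated count and not scaled to depth (9.97% of values are not whole), a TPM value scaled to transcript length by the authors, and lengths, for each of 57180 Ensembl identifiers. Of these, 51884 were matched to a symbol. Overlaps of genes were taken from GENCODE M21, of another build, so no coordinates of the files are given. Promoters come from RefSeq. Of the marker genes, 1 is not reported here.

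Expected counts were rounded, filtered with filterByExpr (17639 genes), and TMM-scaled. Group was the single term of a robust quasi-likelihood fit (edgeR 4.0.16, R 4.3.3), and p-values were adjusted by Benjamini-Hochberg over all genes (threshold 0.05). Checks used limma 3.58.1 and DESeq2 1.42.0. The fit was tested on simulated data. Depth was 30344161 to 54265479 counts, and the standard error of log2 fold changes had a median of 0.54. With 3 against 3 an exact two-sided permutation test cannot go below 0.1. The genes and lists were chosen with earlier results of these data known. All 10 prostaglandin genes are named, and of each other list the 2 of highest mean TPM and any with an unadjusted p under 0.05. Labels do not say whether libraries come from separate animals, so the p-values reflect only how far these samples spread, which may be technical.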

Additional observations from a re-analysis of the deposited data

How the results depend on the processing

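No gene was called by edgeR with all libraries, against 427 at an unadjusted p under 0.05, whereas DESeq2 called 23 higher and 10 lower in the libraries labelled Tcf4+/-. Leaving out 1 library gave 0 to 2 calls in each direction, with 2 and 2 without Col8a2 replicate 3. None of the prostaglandin or other pathway genes was called by edgeR or DESeq2, and of 447 values of named genes over 18 other settings 51 changed sign. Ptgds (-0.84 to -0.13), Ptgs1 (-1.25 to -0.54) and Ptgs2 (-2.50 to -0.83) were lower under every setting run. So were Mgll, Anxa1, Akr1b8, Abcc4 and Ptgr1. The settings reuse the same libraries, so a constant sign is no independent support. The samples share only replicate numbers: deviations of same-numbered libraries had correlations of -0.02, 0.14 and -0.02. With a replicate block the log2 fold change was -1.73 for Ptgs2, -0.20 for Ptgds and -0.03 for Gna11, the only named gene to change sign there, and no call changed.

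On log2(TPM + 1) and log2(TPM + 0.1), where the median of all genes was -0.15 and -0.18, values were -0.06 and -0.07 for Ptges, -0.10 and -0.10 for Ptges3, -0.18 and -0.19 for Prxl2b, -0.02 and -0.06 for Ptger3, -0.002 and -0.002 for Lta4h, -0.16 and -0.16 for Gnas and -0.05 and -0.05 for Gna11. Upper-quartile scaling gave 0.01 for Ptges2 and 0.03 for Akr1b3, voom 0.02 for Ptges2 and -0.01 for Gna11, total counts -0.002 for Gna11, and a minimum of 5 CPM 0.01 for Akr1b3. Without both lens-rich libraries, which leaves 1 library labelled Tcf4+/- that is assumed to vary like the Col8a2 libraries and removes most Ptgfr counts, values were 0.34 for Ptges2, -1.14 for Ptger4, -0.04 for Ptgfr, 0.13 for Akr1b3, 0.01 for Slco3a1, -0.03 for Gnas and -0.49 for Gna11. Leaving out 1 library in turn gave -0.09 to 0.63 for Ptges, -0.30 to 0.34 for Ptges2, -0.42 to 0.19 for Ptgis, -0.50 to 1.66 for Ptger4, -0.29 to 0.25 for Akr1b3, -0.21 to 0.43 for Prxl2b, -0.60 to 0.88 for Ptger3, -0.77 to 0.04 for Ptgfrn, -0.35 to 0.15 for Slco3a1, -0.11 to 1.38 for Alox12, -0.56 to 0.22 for Apod, -0.03 to 0.94 for Ttr, -0.05 to 0.10 for Gnas and -0.33 to 0.22 for Gna11. It left 6 to 10 of the 10 places in the order of levels unchanged, 6 without the library labelled Tcf4+/- replicate 2. The cause of these changes was not tested. Receptor values rest on few counts, 0 to 191 estimated counts per library, which vary widely between libraries.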
